A study of Mus musculus with 12 samples.

Results

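Regulatory T cells (Tregs) labelled as coming from the spleens of mice with a T-bet knockout were set against spleen Tregs of control mice. The comparison took every array whose title names spleen, which gave 3 knockout and 3 control arrays, 6 of the 12 in the series; the other 6 hold the same genotypes in perigonadal fat. Knockout mice carried a floxed Tbx21, the gene of T-bet, together with Foxp3-YFP-Cre, and control mice carried Foxp3-YFP-Cre alone, so both groups share the Cre allele. All mice were of the C57BL/6 strain and on a chow diet. The labels give neither age nor the number of animals behind an array, so a p-value here reflects how these samples spread, which may be technical variation only. Cre is driven here from the Foxp3 locus, which limits the deletion to cells that have switched on Foxp3. RNA was measured on Illumina bead arrays, 1 array per sample.

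T-bet is a transcription factor of the T-box family that directs type 1 immunity. In helper T cells it is induced by interferon gamma and interleukin 12 signals, and it activates Ifng and the chemokine receptor gene Cxcr3. A share of Tregs also switches on T-bet, and such cells are known to carry CXCR3 and to restrain type 1 responses.

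The labels also place the 6 arrays on 3 slides, each with 1 knockout and 1 control array of the same replicate number, so that each replicate number is a slide. On each slide the control array has the place letter A and the knockout array the letter B, so genotype and place cannot be told apart. Of the 45281 probes on the array, 27.0, 34.1 and 34.4% were detected on the knockout arrays of slides 1, 2 and 3, against 34.5, 40.2 and 40.9% on the control arrays. The knockout array had the lower share on every slide, and the means were 31.8 ± 4.16% in knockout and 38.5 ± 3.51% in control Tregs (SD, n = 3 each, exact permutation p 0.1, two-sided, the smallest that 3 against 3 allows). The median raw bead intensity was 141.9, 114.5 and 99.7 on the knockout arrays and 110.8, 87.5 and 92.6 on the control arrays (exact permutation p 0.2). Among the genes tested, 1.56% were detected on all 3 control arrays and no knockout array, and 0.228% the other way round. The part of this difference in the results below was not tested.

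**Figure D1:**
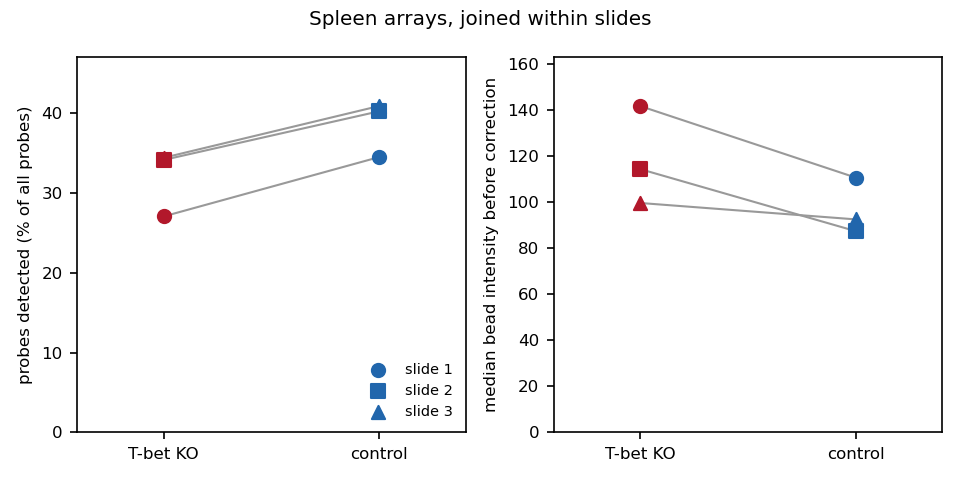
Percent of probes detected (left) and median raw bead intensity (right, linear scale) on each knockout and control array of the spleen, with points joined within a slide. On each of the 3 slides the knockout array lies below the control array in detection (27.0 to 34.4% against 34.5 to 40.9%) and above it in median intensity.

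Across the genome no gene differed between knockout and control spleen Tregs beyond the spread between arrays. With limma on the log2 intensities of 8345 genes, 0 passed a Benjamini-Hochberg adjusted p of 0.05 (0%), and the smallest adjusted p was 0.99996. At an unadjusted p of 0.05, 134 genes were higher (1.61%) and 116 lower (1.39%) in knockout Tregs, together 250 or 3% of genes. With the slide as a block limma again called 0, with 336 genes under the unadjusted threshold. The largest differences were +2.03 and −2.03 on the log2 scale. The 95% interval of a gene had a median half-width of 0.95, and for 1891 genes (22.7%) it lay within a 2-fold difference in both directions. For the other genes it reached past a 2-fold difference in at least 1 direction.

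The 3 slides did not share a direction over all genes. Knockout values were above control values on all 3 slides for 11.1% of genes and below them on all 3 for 11.7%. The groups did not overlap, with knockout higher, for 3.83% of genes, and with knockout lower for 3.59%. Across genes the knockout minus control difference of 1 slide had a correlation of −0.04 with another for slides 1 and 2, −0.03 for slides 1 and 3 and −0.03 for slides 2 and 3, a description in which genes are not independent. The spread of these differences was widest on slide 1 (SD 0.955 over genes), narrower on slide 2 (0.812) and narrowest on slide 3 (0.615). Knockout arrays of different slides had correlations of 0.865 to 0.899 with each other, control arrays 0.860 to 0.895, and arrays that differ in both slide and genotype 0.865 to 0.900.

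**Figure D2:**
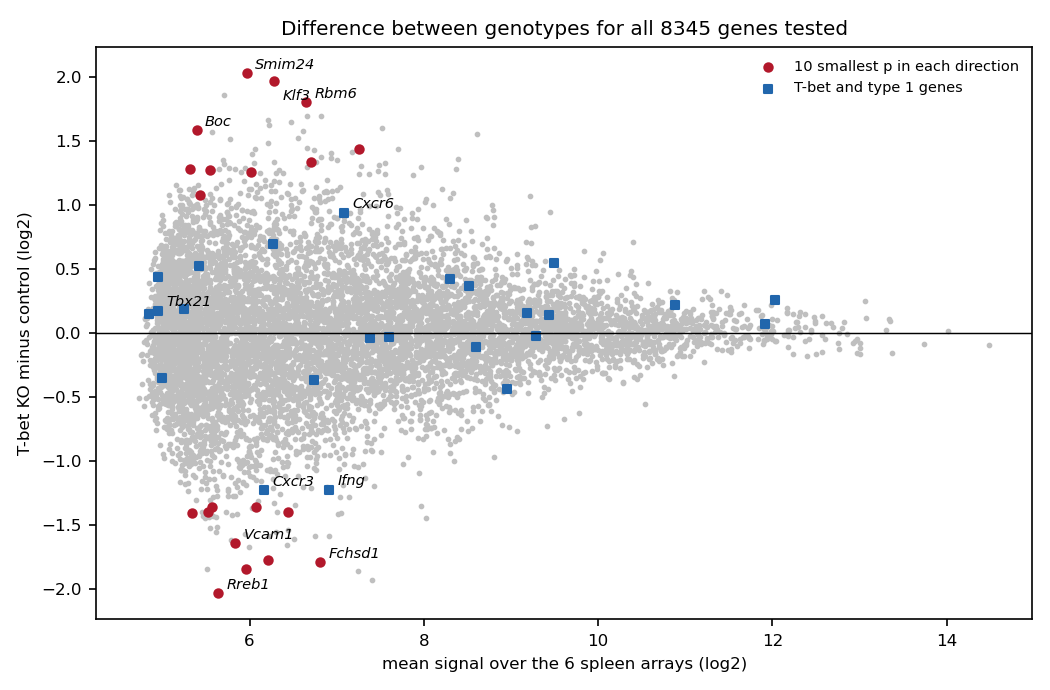
Knockout minus control difference (log2) of each of the 8345 genes against its mean log2 intensity over the 6 spleen arrays. The cloud is centred near 0, with a median of +0.01, no gene passes the adjusted threshold, and the labelled genes at the edge of the cloud reach +2.03 (Smim24) and −2.03 (Rreb1).

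Tbx21 itself was near the detection limit in both groups. Its probe read 4.68, 5.72 and 4.71 (log2 intensity, slides 1 to 3) in knockout and 4.54, 4.87 and 5.18 in control spleen Tregs, and it was detected on 1 knockout and 2 control arrays. The lowest detected signals of the arrays lay between 4.81 and 5.51. The difference was +0.18 (SE 0.40, 95% interval −0.73 to +1.09, limma adjusted p 0.99996), and the groups overlap. The sources used here do not place this probe inside or outside the floxed stretch, so its signal does not check the genotype, and the libraries are called by their labels throughout. Foxp3, which defines the Treg lineage, read 8.84, 8.36 and 7.83 in knockout and 8.58, 8.52 and 7.68 in control Tregs, a difference of +0.08 (95% interval −0.85 to +1.02). Its other 2 probes differed by +0.30 and −0.38.

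No gene of the type 1 program that T-bet is known to drive passed the test. Of 36 such genes written down from general knowledge, 24 were measured, 8 were on the array but below the detection filter and 4 have no probe named here. Limma called 0 of the 24 at the adjusted threshold, and 0 had an unadjusted p under 0.05. Of the 24, 15 were higher and 9 lower in knockout Tregs, beside 50.9% higher over all genes, with a median of +0.15 against +0.01 over all genes. Cxcr3 and Ifng, 2 of the 24, differed by 2-fold or more, beside 3.79% of all genes. Genes below the filter include Gzmb, a cytotoxic protease, Il12rb2, a subunit of the interleukin 12 receptor, and Eomes, the T-box factor most like T-bet.

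Within the type 1 list Cxcr3 showed the widest gap between slides. It read 4.50, 7.23 and 4.94 in knockout Tregs and 7.22, 5.48 and 7.66 in control Tregs, and was detected on 1 knockout array (slide 2) and all 3 control arrays. On slides 1 and 3 the knockout array was the dim one, while on slide 2 the library labelled T-bet knockout was the brighter. Whether the slide 2 libraries carry the genotypes on their labels was not tested, and every mean takes them as labelled. The slide differences were −2.72, +1.75 and −2.72, and the mean was −1.23 (SE 0.80, 95% interval −3.05 to +0.59, limma adjusted p 0.99996). Without slide 2 the difference was −2.72 (adjusted p 0.9996), without slide 1 it was −0.48 and without slide 3 −0.48.

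Nkg7, a membrane protein of cytotoxic granules, ran the same way over the slides. It read 5.73, 7.52 and 6.43 in knockout and 7.18, 5.33 and 8.26 in control Tregs, with slide differences of −1.44, +2.19 and −1.84. Ccl5, a chemokine of effector T cells, read 7.97, 9.77 and 8.48 in knockout and 9.04, 8.53 and 9.94 in control Tregs, with slide differences of −1.08, +1.24 and −1.46. For both genes the knockout library of slide 2 was the highest of its group, the control library of slide 2 the lowest of its group, and the groups overlap. The mean differences were −0.36 for Nkg7 (95% interval −2.07 to +1.35) and −0.43 for Ccl5 (−1.69 to +0.82). Leaving out slide 1, 2 or 3 gave +0.18, −1.64 and +0.37 for Nkg7 and −0.11, −1.27 and +0.08 for Ccl5, and limma called neither gene in any of these.

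Ifng, the cytokine that defines type 1 responses, read 4.73, 6.00 and 8.17 in knockout and 7.72, 5.46 and 9.38 in control Tregs. Its slide differences were −2.99, +0.53 and −1.21, so that slide 2 again pointed the other way. The mean difference was −1.22 (SE 1.08, 95% interval −3.69 to +1.25), and leaving out slide 1, 2 or 3 gave −0.34, −2.10 and −1.23. A further Ifng probe differed by −0.66. Xcl1, a chemokine that attracts cross-presenting dendritic cells, read 5.67, 9.01 and 7.43 in knockout and 7.43, 6.50 and 8.29 in control Tregs, with a mean difference of −0.04. Leaving out slide 1, 2 or 3 gave +0.82, −1.31 and +0.37 for Xcl1.

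**Figure D3:**
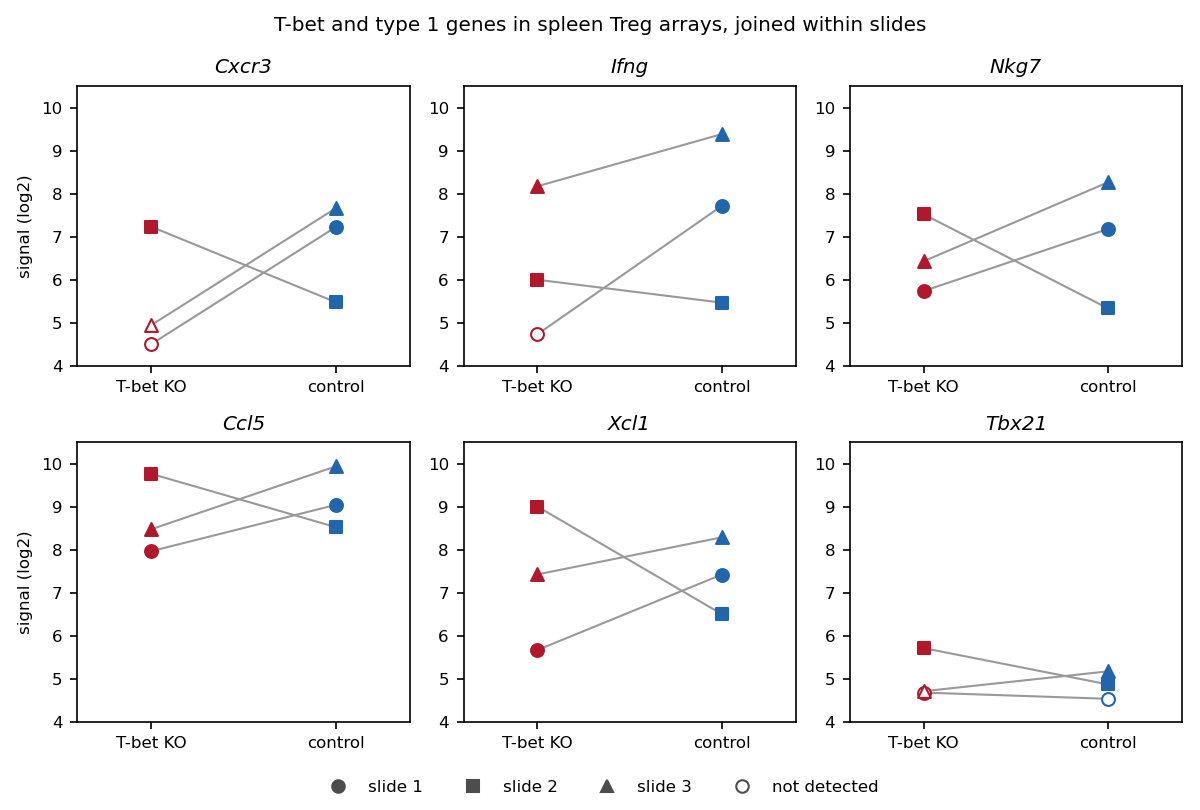
Log2 intensity of type 1 genes on the knockout and control arrays of the spleen, with points joined within a slide. Cxcr3, Nkg7 and Ccl5 are lower in knockout on slides 1 and 3 and higher in knockout on slide 2, while Tbx21 stays near the detection limit on all 6 arrays.

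This pattern was noticed after the values were seen. Of the 24 type 1 genes, 9 (37.5%) were lower in knockout on slides 1 and 3 and higher on slide 2, as were 1154 of all genes (13.8%). A further 6 (25.0%) were higher in knockout on all 3 slides and 0 were lower on all 3, beside 11.1% and 11.7% of all genes. At 2-fold or more in each of these steps there were 9 such genes among all 8345 (0.108%), and 3 of the 9 were Cxcr3, Nkg7 and Ccl5. The opposite pattern at that size was met by 12 genes (0.144%). Other lists were uneven over the slides too. Of 13 glycolysis genes 7 (53.8%) were higher on slides 1 and 3 and lower on slide 2, beside 11.9% of all genes. Of 10 heat shock genes 7 (70.0%) were higher on slide 3 only, beside 11.7%. On slide 1, 14 of the 24 type 1 genes were lower and 10 higher in knockout (median −0.10). On slide 2, 4 were lower and 20 higher (median +0.50), and on slide 3, 12 were lower and 12 higher (median −0.02). The fat arrays of the same slides gave Cxcr3 4.47, 6.46 and 5.32 in knockout and 7.39, 6.32 and 7.85 in control Tregs, with slide differences of −2.92, +0.14 and −2.53.

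Promoter sequence of Nkg7, Cxcr3, Ifng and Xcl1 is shown because these genes carry that slide pattern. For Nkg7, Cxcr3 and Ifng the stretch covers bases 100 to 1 before the gene's start, and for Xcl1 bases 235 to 136, chosen to hold its match on the gene's own strand. Each stretch is from RefSeq on GRCm38.p6 and runs 5′ to 3′ on the gene's own strand; capitals mark a match to a T-box motif, searched on both strands as AGGTGTGA or as its shorter core GGTGTG, which lies within the longer motif.
Nkg7, chr7:43437038-43437137, plus strand: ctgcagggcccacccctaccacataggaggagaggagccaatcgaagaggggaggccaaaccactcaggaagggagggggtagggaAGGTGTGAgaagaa
Cxcr3, chrX:101734148-101734247, minus strand: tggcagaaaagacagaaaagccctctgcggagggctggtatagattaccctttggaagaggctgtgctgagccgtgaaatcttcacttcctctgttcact
Ifng, chr10:118440946-118441045, plus strand: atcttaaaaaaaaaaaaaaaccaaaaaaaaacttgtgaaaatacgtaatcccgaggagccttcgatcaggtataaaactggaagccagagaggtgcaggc
Xcl1, chr1:164935658-164935757, minus strand: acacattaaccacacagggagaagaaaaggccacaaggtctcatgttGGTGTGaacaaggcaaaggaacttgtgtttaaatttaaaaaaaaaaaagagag
The match in Nkg7 starts 14 bases before the gene's start, and the one shown for Xcl1 188 bases before it. Xcl1 holds a second core match, on the opposite strand and nearer to the start, outside the stretch shown. Over the 250 bases before the start, 18 of the 24 type 1 genes have a sequence here, of which 1 holds the longer motif (Nkg7) and 7 the core. The longer motif was in 61 of 6795 tested genes with a sequence (0.898%) and in 1.12% of all 32851 promoter windows, and the core in 1194 tested genes (17.6%) and 16.3% of windows. The 61 genes had a median knockout minus control difference of −0.02, with 8 higher and 8 lower on all 3 slides, against a median of +0.01 over the 6795. A match describes the letters and is no binding site shown here.

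Further members of the list with a role in cell migration were brightest on slide 2 or 3. Cxcr6, a chemokine receptor of tissue T cells, read 6.31, 9.01 and 7.33 in knockout and 6.51, 6.41 and 6.91 in control Tregs (+0.94, 95% interval −0.49 to +2.37). Ccl4, a chemokine of activated T cells, read 5.00, 7.07 and 7.80 in knockout and 5.04, 4.63 and 8.11 in control Tregs (+0.70, −1.57 to +2.97). Both differed most on slide 2, by +2.60 for Cxcr6 and +2.44 for Ccl4.

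Receptors and signal carriers of the interferon gamma, interleukin 12, interleukin 18 and interleukin 27 pathways ran between −0.03 and +0.55. Il27ra, the interleukin 27 receptor, read 9.50, 9.54 and 10.25 in knockout and 8.51, 9.11 and 10.03 in control Tregs (+0.55, 95% interval −0.49 to +1.59). Il18rap was at +0.52, Ifngr1 at +0.42, Ifngr2 at +0.26, Il18r1 at +0.16 and Il12rb1 at +0.15. Stat4, which relays interleukin 12 signals, was at −0.03 (−0.88 to +0.82), and Irf1, an interferon-induced factor, at +0.22. Tbkbp1, the gene next to Tbx21 in the mouse genome, read 5.22, 5.08 and 5.20 in knockout and 4.75, 4.59 and 4.85 in control Tregs (+0.44, −0.25 to +1.13). It lay near the detection limit and was detected on 2 knockout arrays and 1 control array. Tbkbp1 was the 1 type 1 gene of the 24 whose groups did not overlap, beside 7.43% of all genes. Klrg1, a receptor of terminally differentiated effector cells, was at +0.37, Prf1, the pore-forming perforin, at +0.08, Fasl, a death ligand, at +0.19, and Havcr2, which encodes the checkpoint receptor TIM-3, at −0.35. Other kept probes gave +0.03 for Il27ra, −0.29 and −0.39 for Ifngr2, and −0.62 to +0.84 for Stat4. They also gave +0.72 and −0.27 for Il18r1 and −0.20 to −0.03 for Irf1.

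Among the genes with the smallest p and knockout higher on all 3 slides were transcription factor, membrane protein and transporter genes. Klf3, a repressive zinc-finger factor related to Klf2, read 7.09, 8.21 and 6.50 in knockout and 5.63, 4.89 and 5.37 in control Tregs (+1.97, SE 0.48, limma p 0.00296, adjusted p 0.99996). Smim24, a small membrane protein gene, read 6.99, 7.92 and 6.04 in knockout and 4.94, 4.55 and 5.36 in control Tregs (+2.03, SE 0.50). In both genes the lowest knockout array lay above the highest control array, and both gave smaller differences without slide 2 (+1.29 for Klf3, +1.36 for Smim24). Smim24 was detected on 3 knockout arrays but only 1 control array, so its control values lie near the detection limit.

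Boc, a co-receptor of hedgehog signalling, read 6.38, 5.56 and 6.61 in knockout and 4.56, 4.61 and 4.64 in control Tregs (+1.59, SE 0.37, limma p 0.00229). It was not detected on any control array and passed the detection filter through the knockout arrays alone. With the dimmest detected signals of the control arrays as the bound, the mean of these knockout arrays was at least 2.45-fold higher. That fold describes these arrays only, as the interval of the difference (+0.74 to +2.43, log2) reached below it. Slc31a2, a copper transporter, read 6.38, 5.70 and 5.81 in knockout and 4.55, 4.69 and 4.79 in control Tregs (+1.29, SE 0.33). It was likewise undetected in the controls. By the same bound its mean on these arrays was at least 2.1-fold higher in knockout, and its interval (+0.52 to +2.05) also reached below that fold. Rbm6, an RNA-binding protein, was at +1.81 (SE 0.42), but its 5 other kept probes ran between −0.60 and +0.48. The remaining genes of this kind were Spg11 (+1.44), Gstt3, a glutathione transferase (+1.34), Rtl6 (+1.28), Ssh2, a cofilin phosphatase (+1.26), and Lama4, a laminin chain (+1.08). Lama4 was detected on 3 knockout arrays and 1 control array.

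On the other side Fchsd1, an adaptor of the F-BAR family, had the smallest p of all, reading 6.22, 5.27 and 6.27 in knockout and 7.65, 7.91 and 7.56 in control Tregs (−1.79, SE 0.38, limma p 0.00128, adjusted p 0.99996). Rreb1, a Ras-responsive zinc-finger factor, read 4.55, 4.59 and 4.73 in knockout and 7.21, 7.40 and 5.37 in control Tregs (−2.03, SE 0.54). It was not detected on any knockout array and passed the detection filter through the control arrays alone. With the dimmest detected signals of the knockout arrays as the bound, its mean on these arrays was at least 2.75-fold lower in knockout. The interval of the difference (−3.26 to −0.81, log2) also held differences smaller than that fold. The control array of slide 3 stood well below those of slides 1 and 2.

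Vcam1, an adhesion molecule that splenic macrophages and stromal cells carry, read 4.49, 4.89 and 5.67 in knockout and 6.07, 6.86 and 7.06 in control Tregs (−1.65, SE 0.43, limma p 0.0047). Vhl, the subunit that marks hypoxia-inducible factors for breakdown, read 5.26, 6.05 and 5.91 in knockout and 7.57, 6.80 and 7.04 in control Tregs (−1.40, SE 0.38). Mpp5, a scaffold of cell polarity, was at −1.85, Zcwpw1, a reader of methylated histones, at −1.77, Vmn1r65 at −1.40, Zfp280c at −1.36 and Grtp1 at −1.36. Zfp41, the tenth of these genes, was not detected on any knockout array by the probe used, and its other kept probe was at −0.30. Each of the 10 genes was detected on all 3 control arrays, and on 0 to 3 of the knockout arrays. Further genes were picked for size among those with the same direction on all 3 slides. Of these Aif1, which marks macrophages, was at −1.86 with a 95% interval of −4.04 to +0.33, and its other kept probes were at −0.42 and −1.22. Cwf19l1 was at +1.70 and Ube2e3 at +1.67. Tbxas1, the thromboxane synthase, was also picked, and its probe was detected on all 3 control arrays and no knockout array.

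**Figure D4:**
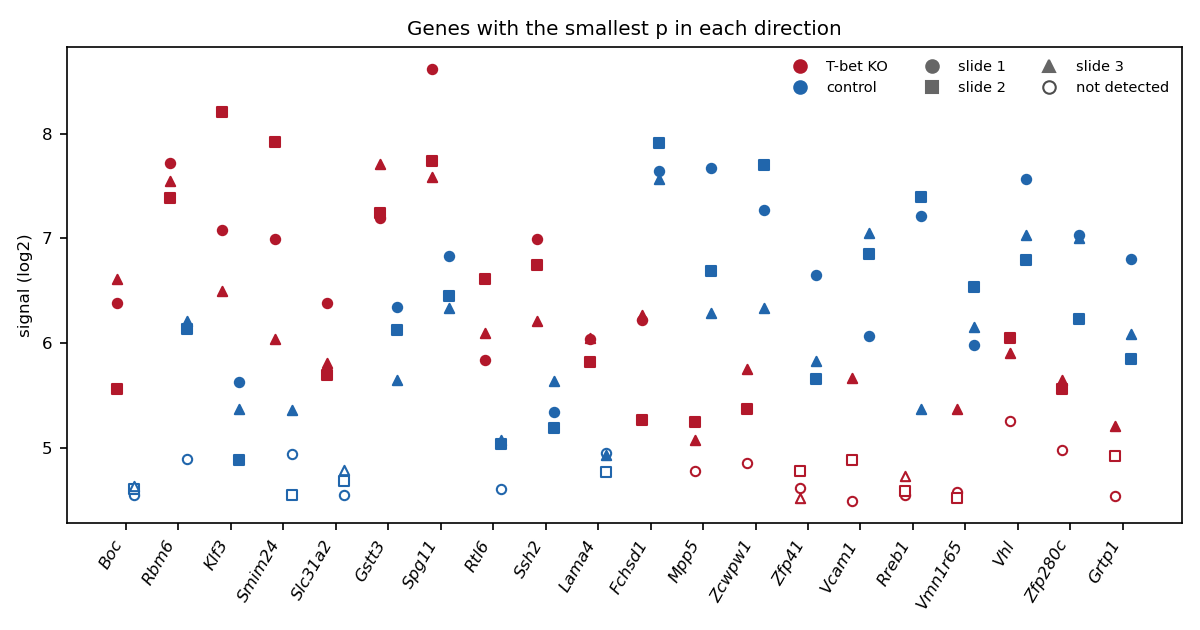
Log2 intensity on the 3 knockout and 3 control arrays for genes with the smallest unadjusted p and the same direction on all 3 slides, 10 higher and 10 lower in knockout Tregs. They were picked for this separation out of 8345 genes, and none passes the adjusted threshold (smallest adjusted p 0.99996).

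No Treg identity gene passed the test. Of 22 Treg core genes 20 were measured, 19 of them detected on all 6 arrays (64.4% of all genes were), 14 were higher and 6 lower in knockout Tregs, and the median was +0.09. The 20 ran from −0.41 (Socs2, a brake on cytokine signals) to +0.53 (Il2ra, the alpha chain of the interleukin 2 receptor), and for 9 of the 20 the 95% interval lay within a 2-fold difference. Il2ra read 7.06, 7.36 and 7.04 in knockout and 7.14, 5.97 and 6.76 in control Tregs, so that its difference came mostly from 1 low control array. Nt5e, which encodes the adenosine-producing CD73, was at +0.39 (95% interval −0.40 to +1.18). A further kept probe gave +0.01 for Il2ra and −0.14 for Nt5e. Ikzf2, the factor Helios, was at +0.06, Ctla4, an inhibitory receptor through which Tregs act, at −0.12, and Tigit, another such receptor, at +0.22. The 10 measured T cell markers averaged 10.09, 9.98 and 10.16 in knockout and 9.91, 9.92 and 10.13 in control Tregs, and 10 of 10 were detected on all 6 arrays. Cd4 was at +0.17 and Cd3e at +0.06. The 18 genes of the T cell receptor complex and its signalling had a median of +0.05, and 0 of them kept 1 direction over the 3 slides.

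Among 22 measured genes of effector Tregs, 1, Maf, had an unadjusted limma p below 0.05, beside 3% of all genes. Maf, a factor that drives Il10, read 6.00, 7.23 and 6.68 in knockout and 5.89, 5.11 and 5.60 in control Tregs (+1.10, SE 0.42, 95% interval +0.16 to +2.05, limma p 0.0274, adjusted p 0.99996). The groups did not overlap, and the difference was +0.60 without slide 2. In fat Tregs the Maf difference was +1.01. Of the 22 measured effector genes 13 were higher and 9 lower in knockout, with a median of +0.20. Il10, a suppressive cytokine, was at +0.66, Prdm1, the factor Blimp-1, at +0.61, and Fgl2, a secreted suppressor of T cells, at +0.81. Prdm1 was detected on 2 knockout arrays and 1 control array. The 9 lower genes included Gata3, the lowest of the 22 at −0.89, and Cd44 at −0.28.

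Gata3, the factor of type 2 immunity that T-bet is known to oppose, read 5.12, 5.76 and 5.76 in knockout and 6.25, 5.95 and 7.11 in control Tregs. The groups did not overlap, with a difference of −0.89 (SE 0.41, 95% interval −1.83 to +0.04, limma p 0.0587). The other 7 of the 8 measured type 2 genes were higher in knockout, among them Il13 (+0.34), Hdc, which makes histamine (+0.49), and Ccr4, a skin-homing receptor (+0.36). Of 16 genes of type 17 and follicular cells 7 were measured, and 7 of 7 were higher in knockout, with a median of +0.48. Over all genes 50.9% were higher. Of the 7, 2 (28.6%) were higher on all 3 slides, beside 11.1% of all genes, and the slide 2 median was +0.02. Il21, a cytokine of follicular helper cells, read 4.55, 6.76 and 5.83 in knockout and 4.52, 4.42 and 5.71 in control Tregs (+0.83, 95% interval −0.54 to +2.21). It was detected on 2 knockout arrays and 1 control array. Cxcr5, which leads T cells to B cell follicles, was at +0.50, Ccr6 at +0.54 and Bcl6, the follicular factor, at +0.08. Other kept probes of Cxcr5 were at +0.30 and −0.17. None of these 15 measured entries passed.

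Resting lymphoid genes included Klf3. Of the 16 measured, 10 were higher and 6 lower in knockout, with a median of +0.05. Klf2, a factor of T cell quiescence, was at +0.73, Foxp1 at +0.73, Actn1 at +0.77 and Bach2, which holds back effector programs, at +0.41. Ccr7, which guides T cells into lymph nodes, was at −0.01, and Lef1, a factor of naive T cells, at −0.04. Bcl2 was the lowest of the 16 at −0.31. It read 9.30, 9.75 and 9.67 in knockout and 10.02, 9.79 and 9.83 in control Tregs, without overlap. Its other kept probes ran from −0.93 to +0.53. Of the 17 homing and adhesion genes, 11 were higher and 6 lower, with Cxcr3 and Cxcr6 at the ends of the range. Of the 21 activation and checkpoint genes 10 were higher and 11 lower (median −0.07). Tnfaip3, a brake on NF-kappa-B, was at −0.69 and Nr4a1, a T cell receptor response gene, at −0.46, and both, like Cd44 (−0.28) and Ctla4, were lower on all 3 slides. These 4 are 19.0% of the list, beside 11.7% of all genes. Nr4a1 was detected on 1 knockout array and 2 control arrays. Other kept probes of Cd44 ran from −0.53 to +0.01.

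**Figure D5:**
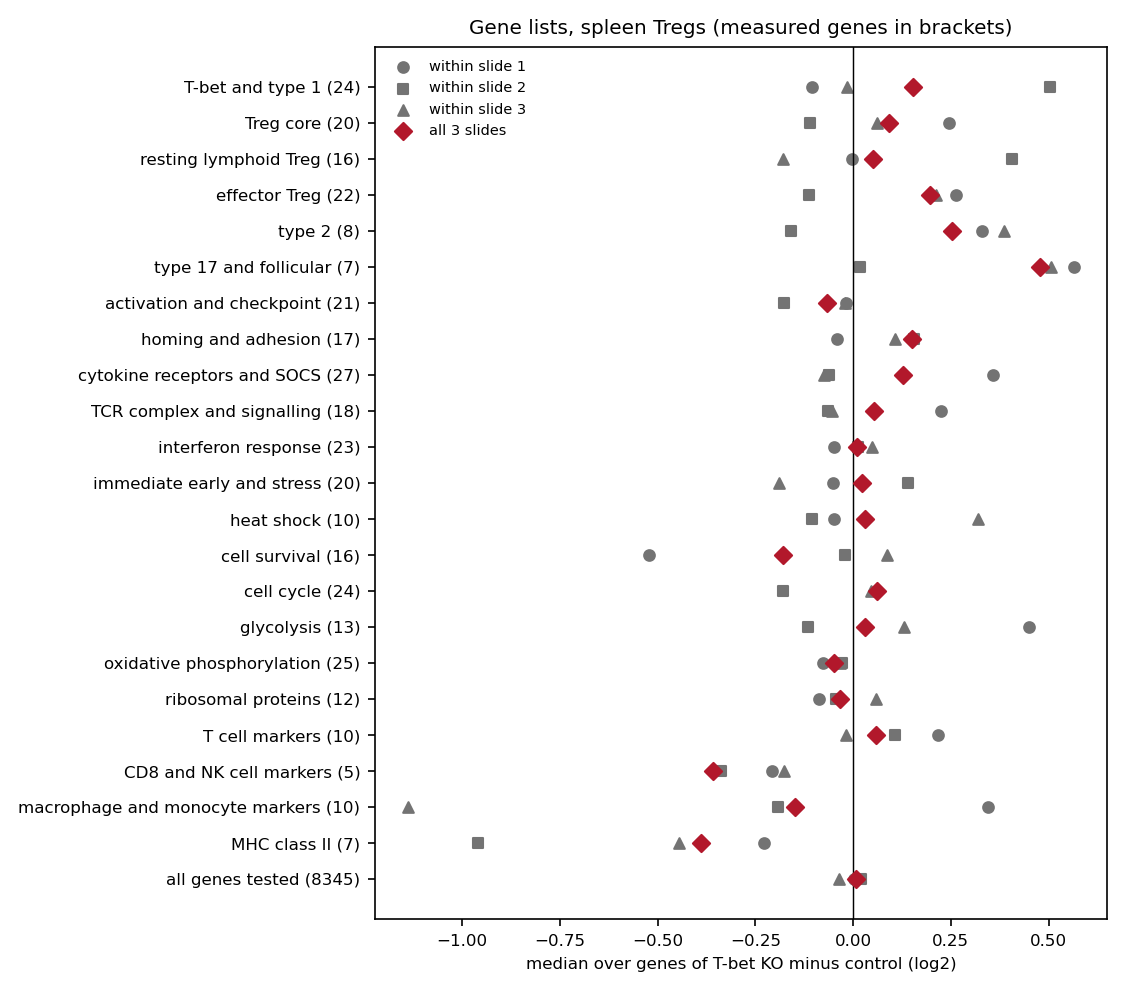
Median knockout minus control difference (log2) of each gene list with at least 5 measured genes, within slides 1, 2 and 3 (grey) and over all 3 slides (red diamonds). Many lists change side between slides; type 1 genes reach +0.50 on slide 2, and macrophage markers run from +0.34 on slide 1 to −1.14 on slide 3.

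Cytokine receptors, their kinases and their inhibitors split in both directions. Of the 27 measured, 19 were higher and 8 lower in knockout Tregs (median +0.13). Il10rb, a chain of the interleukin 10 receptor, read 4.89, 5.52 and 6.06 in knockout and 6.38, 6.95 and 6.02 in control Tregs (−0.96, limma p 0.0495), with slide 3 level. Jak3, the kinase of common gamma chain receptors, was at +0.60 with groups that did not overlap, and Socs3 at −0.55. Interferon response genes were balanced, 12 higher and 11 lower of 23 (median +0.01). Ifit3, an antiviral gene, read 9.0, 9.12 and 9.16 in knockout and 7.86, 8.66 and 8.52 in control Tregs (+0.74, 95% interval −0.04 to +1.53), but its other probe was at −0.82. Iigp1, a GTPase induced by interferon gamma, read 5.66, 6.36 and 6.06 in knockout and 6.54, 6.55 and 6.94 in control Tregs (−0.65, −1.43 to +0.12). Its other kept probes ran from −1.17 to +0.33.

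Oxidative phosphorylation and ribosomal protein genes had narrower intervals than most genes. Of 25 oxidative phosphorylation genes, 11 were higher and 14 lower (median −0.05), and for 19 of the 25 the interval lay within a 2-fold difference. The widest were Ndufc1 (−0.71) and Ndufb3 (−0.61), both of complex I. Of 12 ribosomal protein genes 10 had an interval within 2-fold (median −0.03), with Rpl22 at −0.45 and Rps3 at +0.15. Of 13 glycolysis genes, 8 were higher and 5 lower (median +0.03). Among the higher ones was the kinase gene Pdk1 (+0.42, groups that did not overlap). The groups did overlap for its other kept probe, which was at +1.13. Of 24 cell cycle genes 13 were higher and 11 lower (median +0.06), with Stmn1, a microtubule regulator of dividing cells, at −0.60. Of 16 cell survival genes 12 were lower and 4 higher (median −0.18), among them Cflar, an inhibitor of death receptor signalling (−0.83).

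Immediate early genes, which dissociation and activation induce, were bright on both arrays of slide 3. The 20 immediate early genes averaged 8.23, 7.81 and 9.68 in knockout and 8.0, 7.84 and 9.87 in control Tregs. Their median difference was +0.02. Hspa1a, an inducible heat shock protein, read 7.29, 7.0 and 9.77 in knockout and 7.32, 7.88 and 5.56 in control Tregs (+1.10, 95% interval −0.79 to +2.99), and its near-identical neighbour Hspa1b was at +1.17. On slide 3 all 10 heat shock genes were higher in knockout, while 9 of the 10 were lower on slide 1 and 8 on slide 2.

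Most markers of other spleen cells did not pass the detection filter. The median difference of MHC class II genes was negative on every slide, and that of macrophage and monocyte markers on slides 2 and 3. That of the dendritic cell markers was not negative on any slide. In bulk samples fewer cells of a type and less RNA per cell cannot be told apart. Of 10 MHC class II genes 7 were measured, 6 of them lower in knockout (median −0.39, slide medians −0.23, −0.96 and −0.45). They averaged 6.96, 6.36 and 7.61 in knockout and 7.0, 7.37 and 7.85 in control Tregs. H2-Eb1, a chain of the class II molecule, read 4.82, 5.17 and 6.11 in knockout and 5.55, 6.67 and 6.82 in control Tregs (−0.98, 95% interval −2.09 to +0.12, limma p 0.0735). Cd74, the invariant chain, read 8.04, 5.80 and 8.73 in knockout and 8.27, 7.85 and 8.91 in control Tregs (−0.82, −2.44 to +0.80), and its second probe was at −0.12.

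Of 21 macrophage and monocyte markers 10 were measured and averaged 5.98, 6.49 and 6.47 in knockout and 5.56, 6.93 and 7.56 in control Tregs. The knockout array was thus higher on slide 1 and lower on slides 2 and 3. Vcam1, Cd163, a scavenger receptor (−0.92), and Ctss, a lysosomal protease (−0.27), were lower on all 3 slides, while Lyz2, the lysozyme of macrophages, was at +0.12 and Apoe at +0.13. Itgam and Cd14 were detected on 0 of the 6 arrays and Csf1r on 2 control arrays. The macrophage markers' part in the differences of Vcam1, Aif1 and the class II genes was not tested.

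Of 15 B and plasma cell markers 3 were measured, with Cd79b, a subunit of the B cell receptor, at +0.31 (other kept probe −0.12). Xbp1, a factor of secretory cells, was at −0.39. Ms4a1 and Pax5 were detected on 0 of the 6 arrays. Of 13 markers of CD8 and NK cells 5 were measured (median −0.36), with Cd8a at −0.36, Cd8b1 at −0.04, Klrb1c, the NK1.1 antigen, at +0.54 and Fcer1g at −0.76. Ncr1, which marks NK cells, was not detected on any of the 6 arrays, and the whole list averaged 5.87, 6.27 and 6.10 in knockout and 6.16, 5.95 and 6.71 in control Tregs. Nkg7 is itself a member of that list and enters these means, so they give no separate view of its slide pattern. The median differences of the list within slides 1, 2 and 3 were −0.21, −0.34 and −0.18. The part of these markers in the type 1 pattern was not tested. Dendritic cell markers had 2 of 13 measured, Bst2 at +0.31 and Siglech at −0.15, and granulocyte markers 1 of 15. Erythroid and platelet markers had 3 of 15, with Hba-a1 at −0.74 and Hbb-bt at −0.42. Stromal and endothelial markers had 1 of 16, Pecam1 at +0.57.

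The genotype difference was also set against that in fat Tregs through an interaction term over all 12 arrays. Limma called 0 of 8345 genes for this term (0%), with 313 (3.75%) at an unadjusted p of 0.05 and a smallest adjusted p of 0.301. Among the genes above, Fchsd1 was at −1.79 in spleen and −0.34 in fat, with an adjusted interaction p of 0.9998. Klf3 was at +1.97 in spleen and −0.55 in fat, where it was detected on 1 knockout and 1 control array. Boc was detected on 0 of the 6 fat arrays and Ssh2 on 0 of the 3 fat knockout arrays, so no fat difference is given for them.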

How the data were processed

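Tregs from spleen and perigonadal fat were measured on 12 arrays, 3 per genotype and tissue, and the 6 spleen arrays entered the comparison. The authors deposited linear, non-normalized mean bead intensity values for 45281 probes. Beside each value stands a detection p-value, per the file headers. A second deposited table holds normalized intensity values and served as an alternative. GenomeStudio is named in the submitters' processing notes; neither its version nor any genome build is stated in these sources. Per the labels' protocols, RNA went through NuGEN Ovation Pico amplification and biotin labelling; the stated input, in picograms, may be a slip and was not checked.

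Background was corrected in R 4.3.3 by the nec function of limma 3.58.1, from the detection p-values and with an offset of 16; values were then quantile normalized over all 12 arrays and set on the log2 scale. Probes with a detection p-value below 0.05 on at least 3 of the 6 spleen arrays were kept (16345). Of these 13304 have 1 symbol in the platform annotation, and the brightest probe of each gene was used, which left 8345 genes. The platform annotation gives 1 symbol for 34885 probes, several for 18 and none for 10378; symbols were looked up by Entrez number for 34807 probes, which changed 0. A limma model with a mean per genotype was fitted (residual degrees of freedom 4, prior 4.50), with Benjamini-Hochberg adjustment over all genes. SE is the moderated standard error. The number of arrays limits the precision.

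The replicate number of an array is that of its slide in the labels, so the numbers pair the arrays. Deviations from the group means had correlations of 0.005, 0.161 and 0.346 between the arrays of slides 1, 2 and 3. The main test has no block, and the fit with the block is given beside it. No 2 arrays held identical values.

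The comparison, the 27 gene lists (489 genes, 317 measured) and the naming rule were chosen with earlier results of these data known. Named by the rule (89 genes) were Tbx21, Foxp3 and the measured type 1 genes, the 10 genes of smallest p and the 5 of largest difference in each direction with the same sign on all 3 slides, and, per list, up to 4 members with an unadjusted p below 0.05 or else the 2 of smallest p. Other list members are given as examples picked after their values were seen. The test was run on simulated data before use. Alternatives changed the background correction, normalization, filter, probe rule, arrays in the fit, slide block, variance model and array weights, or left out arrays.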

Additional observations from a re-analysis of the deposited data

Results flagged for a closer look

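Of the 89 named genes, 2 moved one way on all 3 spleen slides and the opposite way on all 3 fat slides. The share of all genes that did so was not counted, and some of the 89 were named for 1 direction on all 3 spleen slides. The count is therefore no result about the named genes. Egr3, an early response gene of T cell receptor signalling, had a knockout minus control difference of +0.44 in spleen and −1.24 in fat, so that fat minus spleen came to −1.678 (limma interaction p 0.0161, adjusted p 0.9998). Stmn1, a microtubule regulator of dividing cells, was at −0.60 in spleen and +0.33 in fat, and fat minus spleen came to 0.93 (interaction p 0.131, adjusted p 0.9998). Neither difference between the tissues passed the interaction test over all genes.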

How the results depend on the processing

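Limma called 0 genes under each of the 24 alternatives, and the number of genes at an unadjusted p of 0.05 ran from 120 to 860, with 250 as reported. The lowest count came from the filter that asked for detection on all 6 arrays (5444 genes tested) and the highest from no filter (19057 genes, smallest adjusted p 0.396). With the slide as a replicate block the calls were 0, and 336 genes were under the unadjusted threshold; the block changed no call. Leaving out 1 array gave 0 calls each time and 205 to 413 genes under the unadjusted threshold, the most without control array 3 (smallest adjusted p 0.69). Leaving out a slide gave 0 calls, with 166 (slide 1), 218 (slide 2) and 361 (slide 3). Counts under the unadjusted threshold were also lower by over 1.5 times with no background correction (161) and with the authors' normalized table (162). For the 89 named genes the smallest adjusted p over the alternatives was 0.686, and 33 of them changed sign in at least 1 alternative while uncalled, among them Nkg7, Ccl5, Xcl1, Tbx21 and Foxp3; 56 did not, among them Cxcr3 (−0.48 to −2.72) and Ifng (−0.29 to −2.25). The interaction with tissue was refitted under a part of the alternatives only, and called 0 genes in each. These were cyclic loess normalization, the slide block, the authors' normalized table and a filter over the arrays of both tissues. Signal limits what can be read from dim genes: 64.4% of tested genes were detected on all 6 arrays, and Tbx21 was not among them.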

Other observations

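The 9 genes that were at least 2-fold lower in knockout on slides 1 and 3 and at least 2-fold higher on slide 2 hold 6 outside the type 1 list. They are Klf9, a zinc-finger factor, Slc15a2, a peptide transporter, Npat, an activator of histone genes, Tor1aip2, Fam126a and 2310009B15Rik. They were picked for this pattern after the values were seen, so their values support nothing further. One further probe of Hspa1a, not the one used for the gene, differed by +2.51 between knockout and control spleen Tregs, while yet another was at −0.24. The +2.51 did not pass in a limma fit of all kept probes (unadjusted p 0.00186, adjusted p 0.99999).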
